A study of Mus musculus with 2 samples.

Results

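The genes described here carry glucose into the heart cell, split it to pyruvate, and pass pyruvate on to lactate, to the mitochondrial pyruvate dehydrogenase complex or, on the side branch, store and release glucose as glycogen. They are a fixed list of 38 genes at 18 steps, taken by symbol from the deposited gene tables, with earlier results of these data already known. All 38 were listed in both tables, out of 17646 genes listed in all, and all 38 passed the level filter of 1 RPKM in at least 1 library, as did 12329 genes overall. RPKM is the number of reads per kilobase of gene length and M reads of the library, where M is 1000000.

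The hearts came from mouse embryos at embryonic day 13.5 on a BALB/c strain background, with 1 wild-type (WT) library and 1 library of SRSF10-/- embryos, which lack the splicing factor Srsf10. The libraries held 39.61 M and 38.89 M uniquely mapped reads. The labels name neither the number nor the sex of the embryos, nor how the allele was made. Because each group is 1 library, no spread between replicates is known and no difference was tested. Higher and lower therefore refer to these 2 libraries, and each fold is a ratio of reads per library read, with an exact conditional 95% interval (Clopper-Pearson) that covers counting error only. Srsf10 had 5245 reads in the wild-type heart and 212 in the knockout. The 10 cardiomyocyte markers were all present, with a summed level of 17867 RPKM in the wild-type heart and 16434 in the knockout, led by cardiac actin (Actc1). Mitochondrially encoded genes took 11.01% of the reads in the wild-type heart and 12.1% in the knockout.

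Glycolysis breaks glucose down to pyruvate in the cytosol and yields ATP without oxygen. The embryonic heart depends on it more than the adult heart, which burns mainly fatty acids, and lactate dehydrogenase restores the cofactor that glycolysis consumes. Entry of pyruvate into the citrate cycle runs through the pyruvate dehydrogenase complex, which its own kinases switch off. Several steps have muscle forms and widely expressed forms made by different genes.

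Sequence matters for 1 member pair before any value is read. Eno1 encodes alpha-enolase, and Eno1b, annotated as a retrogene, is a near copy. In the GENCODE M21 transcripts, the 1305 coding bases of Eno1 differed from the Eno1b transcript at 8 positions, an identity of 99.4%, and the longest run without a difference was 725 bases. The 150-base stretch of the Eno1 coding sequence that holds the most differences spans coding positions 667 to 816. It is printed here to show how few coding positions tell the copies apart. Differences outside the coding sequence were not counted. Capitals mark the 4 positions at which Eno1b has another base.
Eno1: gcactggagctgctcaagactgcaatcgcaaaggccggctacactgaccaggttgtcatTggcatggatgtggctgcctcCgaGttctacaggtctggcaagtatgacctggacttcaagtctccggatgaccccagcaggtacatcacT
Only uniquely mapped reads were counted, and a read within the coding sequence that lies between such positions has the same sequence in both transcripts. How the mapping placed such reads is not known here.

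Other glycolytic genes also have copies. For each member, the percentage of the 31-base words of its longest protein-coding transcript that occur in transcripts of genes elsewhere in the genome was computed. It was 20% or more for 11 of the 38 members: Eno1b (88.5%), Gapdh (84.1%), Eno1 (77.2%), Pgk1 (68.3%), Pkm (48.5%), Pgam1 (42.1%), Pdhb (41.9%), Ldhb (41.4%), Ldha (34.2%), Aldoa (34.2%) and Gpi1 (32.1%). Tpi1 followed at 17.4%. The other 26 members shared 2.38% or less. In the wild type, reads covered 99.95% of the listed length of Pkm and 98.5% of that of Pgk1, but 69.3% of that of Gapdh. Shared words thus do not mark which bases were counted, and levels of the 11 genes are uncertain.

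Most of the list lay close between the libraries. Of the 38 members, 30 differed by less than 1.2-fold in RPKM + 1, which is 78.9%, beside 79.5% of all measured genes. At 1.5-fold, 1 member was higher in the knockout (Eno1) and 2 were lower (Eno1b and Eno2). Over all measured genes, 1.52% were higher and 1.44% lower by that rule. At 1.2-fold, 3 members were higher (Slc2a1, Gapdh and Eno1), where 10.1% of all measured genes were. On the other side, 5 members were lower by 1.2-fold (Tpi1, Eno1b, Eno2, Eno3 and Pdk4), where 10.4% of all measured genes were. At 2-fold, 0 members were higher and 1 was lower (Eno1b), where 0.211% and 0.333% of all measured genes were. These counts are close to what the whole table holds, except that the 2 enolase copies stand at opposite ends.

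The log2 ratio of RPKM + 1, knockout over wild type, had a median of -0.07 over the members. Of these, 13 were above 0 and 25 below. Over all measured genes the median was -0.01, with 5943 above 0 and 6386 below. Among genes with a mean of at least 20 RPKM the median was -0.05, with 1274 above 0 and 2022 below. The 30 members at that level also had -0.05, with 11 above 0 and 19 below. The 27 members with under 20% shared words had a median of -0.08, with 7 above 0 and 20 below. The 11 members with more shared words had a median of 0.10, with 6 above and 5 below. Summed reads of all members were 527532 in the wild-type heart and 516325 in the knockout, or 1.33% of the library in both.

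**Figure D1:**
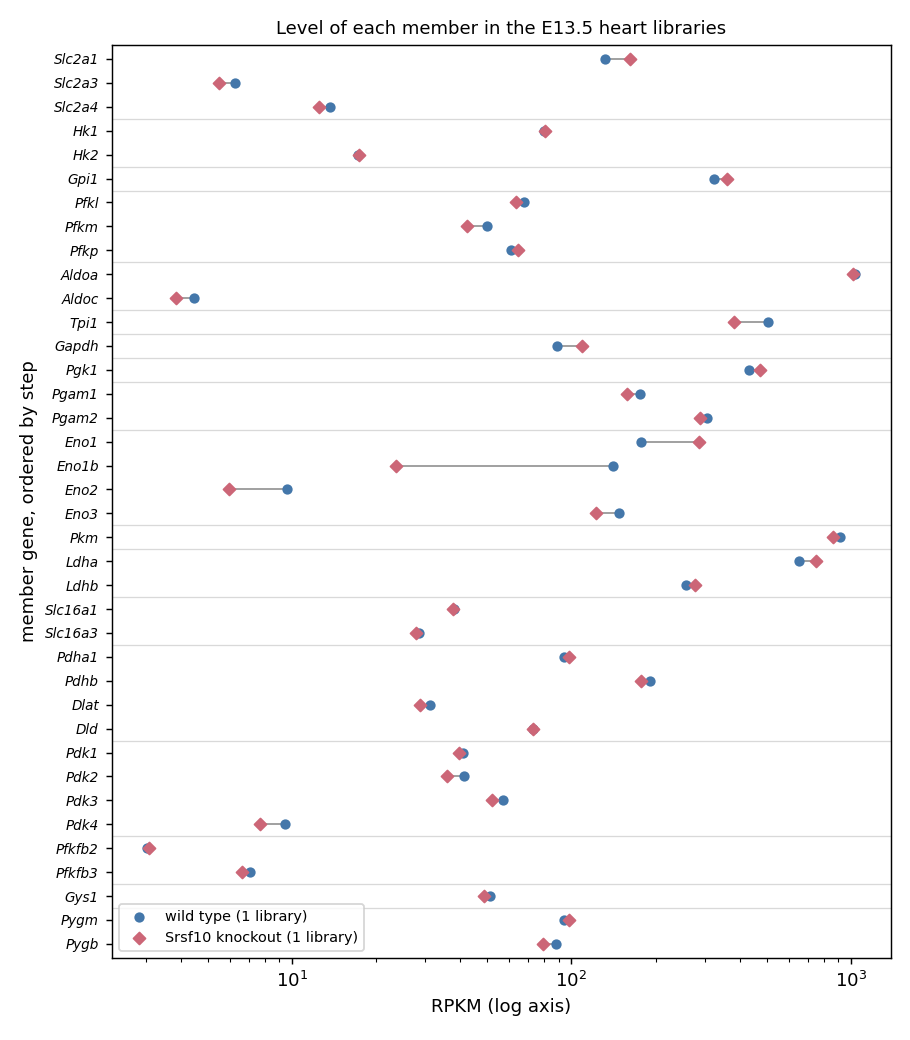
Level of each of the 38 members (RPKM, log axis), with genes grouped by step from glucose transport at the top to glycogen breakdown at the bottom; circles are the wild-type library and diamonds the knockout library. Aldoa, at 1036 and 1016 RPKM, is the most abundant, and Eno1b shows the widest gap, from 141 to 23.6 RPKM.

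Glucose enters the cell through facilitated transporters. Slc2a1 (GLUT1), the carrier of fetal and proliferating tissue, had 131.7 RPKM in the wild-type heart and 162.7 in the knockout (13599 and 16496 reads), 1.24-fold higher (1.21 to 1.26). Of all measured genes, 7.93% had a log2 ratio at least as high. Slc2a4 (GLUT4), the insulin-responsive carrier of muscle and fat, had 13.7 and 12.5 RPKM, 1.10-fold lower (1.01 to 1.18). Slc2a3 (GLUT3), the high-affinity carrier of neurons and placenta, had 6.24 and 5.48 RPKM, 1.14-fold lower (1.06 to 1.23). Of the summed transporter RPKM, Slc2a1 made up 86.9% in the wild-type heart and 90.1% in the knockout, while the share of Slc2a4 was 9.02% and 6.91%.

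GLUT1 is also a carrier of red cells and endothelium, so their markers stand beside it. The 9 erythroid markers, none at 0 reads, summed to 3047 RPKM in the wild-type heart and 2849 in the knockout, almost all of it from the embryonic globins Hbb-y and Hba-x. Per library read, 6 of the 9 were higher and 3 lower in the knockout: the erythroid factor Gata1 had 24 and 58 reads and the membrane protein Epb42 140 and 193, while Alas2, the first enzyme of heme synthesis, had 1630 and 1106. Without the 3 globins the sum was 32.6 and 28.3 RPKM. The 7 endothelial markers, none at 0, summed to 297 and 290 RPKM, with 4 of 7 above 0. Both sums were lower in the knockout, but single erythroid genes went both ways, and the part of red cells or endothelium in the Slc2a1 value was not tested. In bulk tissue, fewer cells of a type and less RNA per cell cannot be told apart. Slc2a1 and Eno1 lie on chromosome 4 in the GRCm38 annotation, as does Srsf10, and whether that bears on their values was not tested.

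Hexokinase traps glucose by phosphorylation, and its genes were nearly level. Hk1, the widely expressed form, had 79.5 RPKM in the wild-type heart and 80.3 in the knockout, 1.01-fold higher (0.986 to 1.03). Hk2, the insulin-regulated muscle form, had 17.3 RPKM in both, at 3769 and 3719 reads. Hk1 made up 82.2% of the pair in the wild type (81.6 to 82.7) and 82.2% in the knockout (81.7 to 82.8). Such shares are per length, with exact Clopper-Pearson intervals of the read share rescaled by the listed gene lengths. Gpi1, which converts glucose-6-phosphate to fructose-6-phosphate, had 323 RPKM in the wild-type heart and 360 in the knockout, 1.12-fold higher (1.10 to 1.13). Its pseudogene copy Gm1840 had 138 and 52 reads, and the sum of both gave 1.11-fold.

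Phosphofructokinase, the committed step, has 3 subunit genes, and they did not differ in the same direction. Pfkm, the muscle subunit, had 49.8 RPKM in the wild-type heart and 42.3 in the knockout, 1.18-fold lower (1.13 to 1.22). Pfkl, the liver subunit, had 67.5 and 63.6 RPKM, 1.06-fold lower (1.03 to 1.09). Pfkp, the platelet subunit, had 60.7 and 64.3 RPKM, 1.06-fold higher (1.03 to 1.09). The most abundant subunit per length was thus Pfkl in the wild type (37.9% of the sum) and Pfkp in the knockout (37.8%, next to 37.4% for Pfkl). Pfkm went from 28.0% to 24.8%. The bifunctional enzymes that set the activator of phosphofructokinase were low: Pfkfb3 had 7.09 and 6.60 RPKM and Pfkfb2 3.03 and 3.09 RPKM. Both of their intervals, 0.863 to 1.005 for Pfkfb3 and 0.928 to 1.12 for Pfkfb2, include a ratio of 1.

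Aldolase splits the phosphorylated sugar, and Aldoa, its muscle and embryonic form, was the most abundant member. It had 1036 RPKM in the wild-type heart and 1016 in the knockout, 1.02-fold lower (1.01 to 1.03), at 63547 and 61202 reads. Aldoc, the brain form, had 4.48 and 3.85 RPKM, under 0.5% of the pair in both libraries (0.430% and 0.377%).

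Tpi1, triosephosphate isomerase, had the lowest ratio of the 18 steps. It had 505 RPKM in the wild type (32030 reads) and 383 in the knockout (23838 reads), 1.32-fold lower (1.30 to 1.34). Of all measured genes, 4.36% had a log2 ratio at least as low. Reads covered 93.8% of its listed length in the wild-type heart and 91.6% in the knockout. No copy holding at least 20% of its words was annotated.

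Gapdh, the dehydrogenase that follows and a common reference gene, went the other way at a level that cannot be compared with its neighbours. It had 88.6 RPKM in the wild-type heart and 108.7 in the knockout (4982 and 6002 reads), 1.23-fold higher (1.18 to 1.27), yet reads covered 69.3% of its length in the wild-type heart and 53.9% in the knockout. The annotation held 71 copies elsewhere with at least 20% of its words, of which 16 were listed, with 508 reads in the wild-type heart and 282 in the knockout. Summed with these, Gapdh was 1.17-fold higher (1.12 to 1.21). Its rank of 15 of the 18 steps in the wild type counts only uniquely mapped reads, and what sets that rank was not tested.

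Of the ATP-yielding steps, Pgk1 was slightly higher and Pkm slightly lower. Pgk1, phosphoglycerate kinase, had 432 RPKM in the wild-type heart and 472 in the knockout, 1.09-fold higher (1.08 to 1.11). Pkm, pyruvate kinase of muscle and embryonic tissue, had 914 and 866 RPKM, 1.06-fold lower (1.05 to 1.07), at 80456 and 74797 reads. Its M1 and M2 splice forms are summed in the gene value and cannot be told apart here.

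Phosphoglycerate mutase was led by the muscle form. Pgam2 had 304 RPKM in the wild-type heart and 288 in the knockout, 1.06-fold lower (1.03 to 1.09). Pgam1, the widely expressed form, had 176 and 158 RPKM, 1.12-fold lower (1.09 to 1.15). Pgam2 made up 63.4% of the pair in the wild type (62.7 to 64.0) and 64.7% in the knockout (64.0 to 65.3).

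Enolase was the step with the largest single-gene differences, and they nearly cancelled in the copy pair. Eno1 had 14260 reads in the wild-type heart and 22610 in the knockout, or 177.6 and 286.8 RPKM, 1.62-fold higher (1.58 to 1.65). Eno1b had 9819 and 1612 reads, or 141.1 and 23.6 RPKM, 5.98-fold lower (5.67 to 6.31). Per length, Eno1 thus held 55.7% of the pair in the wild type (55.1 to 56.4) and 92.4% in the knockout (92.0 to 92.8). The reads of both genes summed to 24079 in the wild-type heart and 24222 in the knockout, a ratio of 1.02 (1.01 to 1.04). The sum of their RPKM, which weights the shorter Eno1b more, gave a ratio of 0.974, so the direction of the sum turns with the weighting. Another annotated copy, Gm4735, holds 57.0% of the words of Eno1 and 68.5% of those of Eno1b and was not listed. Reads shared with Gm4735 may therefore be missing from either sum. Reads covered 84.9% and 83.2% of the length of Eno1, and 63.5% and 41.4% of that of Eno1b. What set the split between the copies was not tested.

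**Figure D2:**
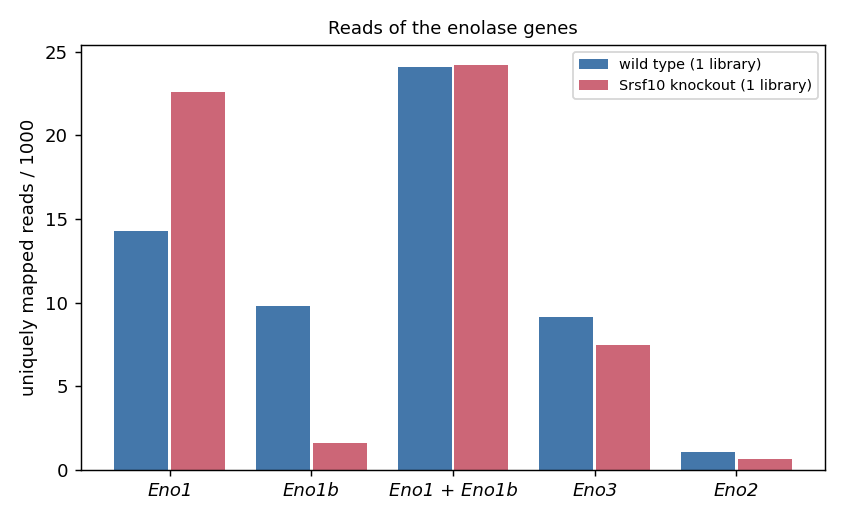
Uniquely mapped reads of the enolase genes in units of 1000 (bars from 0; 1 library per genotype, so no error bars). Eno1 and Eno1b move in opposite directions while their sum is 24079 reads in the wild-type heart and 24222 in the knockout; Eno3 and Eno2 are both lower in the knockout.

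The other enolases, which share 1.27% of their words or less, were both lower. Eno3, the muscle beta-enolase, had 147.7 RPKM in the wild-type heart and 122.4 in the knockout (9151 and 7443 reads), 1.21-fold lower (1.17 to 1.24), and 10.03% of measured genes were at least as low. Eno2, the neuronal gamma-enolase, had 9.59 and 5.93 RPKM (1062 and 645 reads), 1.62-fold lower (1.46 to 1.79), and 1.22% of measured genes were at least as low. Neuronal markers did not share that direction: all 5 measured of the 8 were above 0, none of the 8 was at 0 reads, and their sum was 9.73 RPKM in the wild-type heart and 11.4 in the knockout. Eno3 made up 31.03% of the summed enolase RPKM in the wild-type heart and 27.9% in the knockout. The alpha pair together made up 67.0% and 70.8%.

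The muscle forms Pfkm, Pgam2, Eno3 and Pygm may be read together with muscle markers. Other members tied to muscle above are not in this set, among them Hk2 (17.3 RPKM in both libraries) and Aldoa (1.02-fold lower). Summed, the 4 chosen forms had 596 RPKM in the wild-type heart and 551 in the knockout, 1.07-fold lower in reads (1.06 to 1.09), with Pygm the exception. Cardiomyocyte markers were also lower in sum (17867 and 16434 RPKM), with 8 of 10 below 0. The 9 skeletal muscle markers, none at 0 reads, summed to 141 RPKM in the wild-type heart and 193 in the knockout, with 5 of 6 measured above 0. That sum rests on Tnni2 (fast troponin I), at 24.4 and 96.8 RPKM: without it the other 8 summed to 116.7 and 95.8 RPKM. Ckm (muscle creatine kinase), the most abundant, had 102 and 75.1 RPKM. The unmeasured Myh3 (embryonic myosin) had 87 and 8 reads, and the myogenic factors Myod1 and Myog had 18 and 2 and 41 and 18 reads. The part of either cell type in the 4 values was not tested.

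Markers of other cell types also differed, and they stand beside every member since all were read from whole hearts. The 6 fibroblast and cushion markers, none at 0, summed to 813 RPKM in wild-type and 567 in knockout RNA, with 6 of 6 below 0 and 3 lower by 1.5-fold. The 8 macrophage and leukocyte markers, none at 0, summed to 47.8 and 66.2 RPKM, with 6 of 7 measured above 0. Of the 6 hepatocyte markers, 2 were at 0 in the knockout and none in the wild type, and the sums were 5.69 and 2.90 RPKM. Of the 3 measured, 1 was above 0 and 2 below. Alb (albumin) had 88 and 0 reads and Afp (alpha-fetoprotein) 145 and 4, while Apoa2, the most abundant, had 39 and 42. Of the unmeasured, Ttr had 22 and 34 reads, Apoa1 19 and 2, and Serpina1a 2 and 0. The part of these cells in the members' values was not tested.

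**Figure D3:**
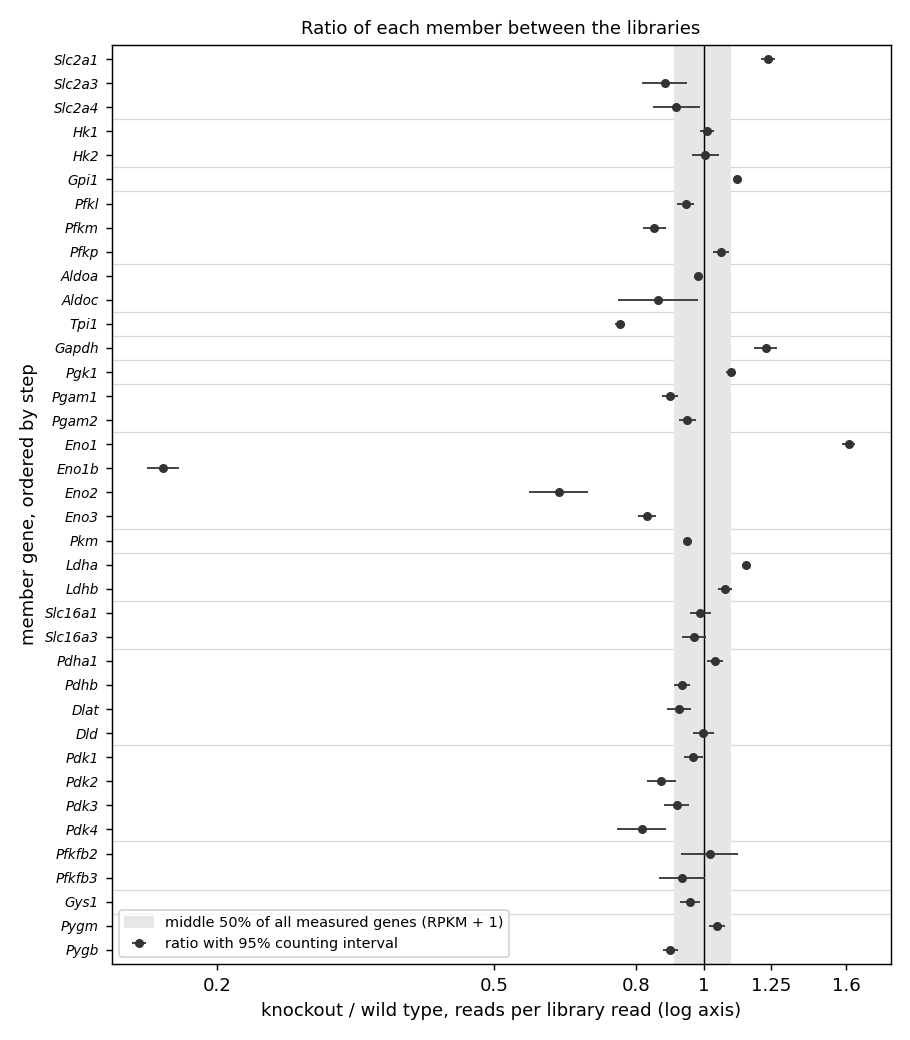
Ratio of each member, knockout over wild type, in reads per library read (log axis, points) with exact 95% counting intervals (bars); the grey band is the middle 50% of the ratios of RPKM + 1 over 12329 measured genes. Most members lie in or near the band, with Eno1 at 1.62, Slc2a1 at 1.24 and Gapdh at 1.23 to the right, and Eno1b at 0.167, Eno2 at 0.619 and Tpi1 at 0.758 to the left.

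Lactate dehydrogenase was higher in both subunits. Ldha, the form that favours lactate production, had 651 RPKM in the wild-type heart and 748 in the knockout (45548 and 51390 reads), 1.15-fold higher (1.13 to 1.16). Ldhb, the form that dominates in the adult heart, had 257 and 276 RPKM, 1.07-fold higher (1.05 to 1.10). Ldha made up 71.7% of the pair in the wild type (71.3 to 72.1) and 73.1% in the knockout (72.7 to 73.4). Summed, the step had 909 RPKM in the wild-type heart and 1024 in the knockout. Aldolase (1040 and 1020 RPKM), pyruvate kinase and lactate dehydrogenase were the 3 highest steps in both libraries, with aldolase first in the wild-type heart and lactate dehydrogenase first in the knockout. In the knockout the first 2 were 1024 and 1020 RPKM.

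Lactate leaves or enters through monocarboxylate transporters, and these were level. Slc16a1 (MCT1) had 38.2 RPKM in the wild-type heart and 37.7 in the knockout, and Slc16a3 (MCT4), the exporter of glycolytic muscle, had 28.6 and 27.7 RPKM. Their intervals, 0.955 to 1.02 and 0.931 to 1.01, include a ratio of 1. The direction of Slc16a1 turned when the libraries were scaled to reads outside the mitochondrial genes.

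The subunits of the pyruvate dehydrogenase complex summed to 390 RPKM in the wild-type heart and 377 in the knockout. Pdhb, the beta subunit of the decarboxylase and the most abundant, had 191.5 and 178.2 RPKM, 1.07-fold lower (1.05 to 1.10). Its partner Pdha1, the alpha subunit, had 94.2 and 97.7 RPKM, 1.04-fold higher (1.01 to 1.06). Dlat, the acetyltransferase core, had 31.2 and 28.7 RPKM, 1.09-fold lower (1.04 to 1.13). Dld, the dehydrogenase shared with other complexes, had 72.9 and 72.7 RPKM, and its direction turned under 2 of 3 other scalings.

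The kinases that inhibit the complex were all below 0 and summed to 148.7 RPKM in the wild-type heart and 135.2 in the knockout. Pdk3, the most abundant, had 56.9 and 52.02 RPKM, 1.09-fold lower (1.05 to 1.14). Pdk2 had 41.3 and 35.9 RPKM, 1.15-fold lower (1.10 to 1.21), and Pdk1, a hypoxia-responsive form, 41.1 and 39.7 RPKM, 1.04-fold lower (1.004 to 1.07). Pdk4, induced by fasting and fatty acids in adult muscle, had 9.46 and 7.70 RPKM, 1.23-fold lower (1.13 to 1.33), and 10.3% of measured genes were at least as low. Within the kinases, Pdk1 made up 27.6% and 29.3% of the sum and Pdk4 6.36% and 5.69%.

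On the glycogen branch, the synthase Gys1 had 51.0 RPKM in the wild-type heart and 48.7 in the knockout, 1.05-fold lower (1.01 to 1.08). The 2 phosphorylases, which release glucose from glycogen, went apart. Pygm, the muscle form, had 93.95 and 98.2 RPKM, 1.05-fold higher (1.02 to 1.07). Pygb, the brain form, had 88.4 and 79.1 RPKM, 1.12-fold lower (1.09 to 1.15). Pygm therefore made up 51.5% of the pair in the wild type (50.9 to 52.2) and 55.4% in the knockout (54.8 to 56.0), intervals that cover counting error only.

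**Figure D4:**
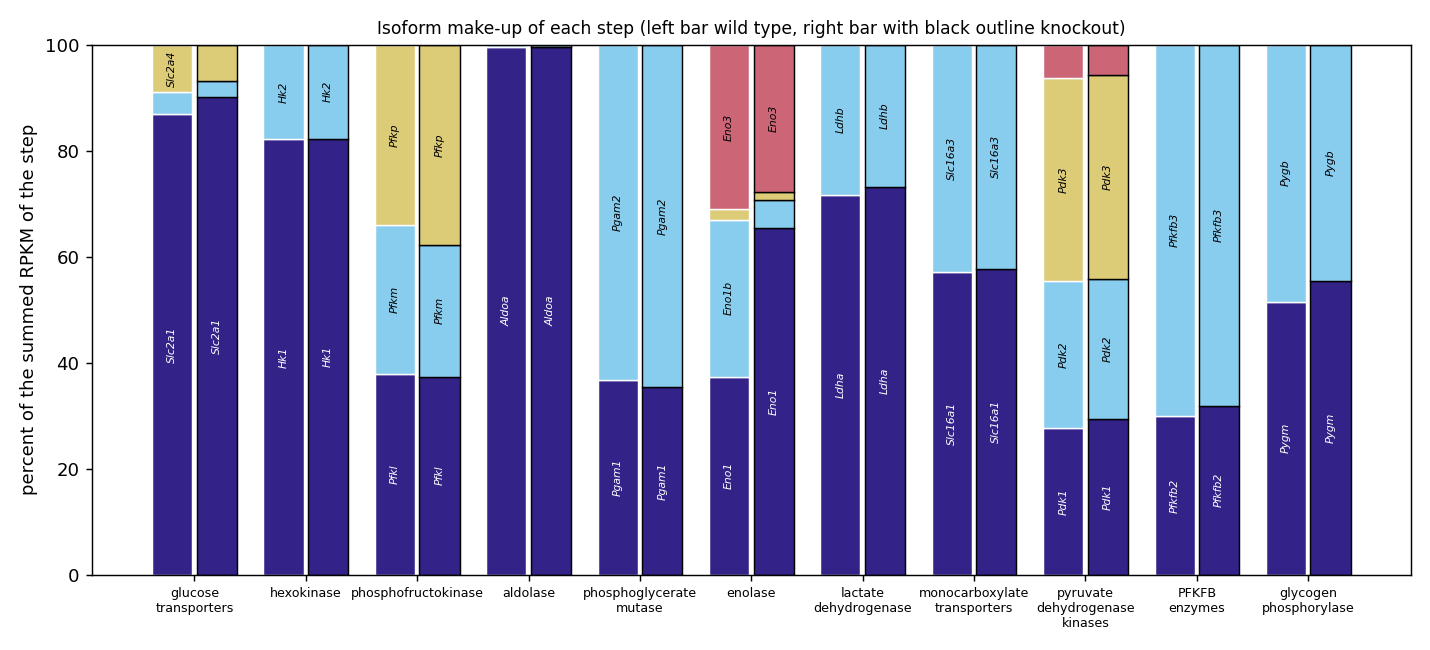
Make-up of each step with more than 1 member gene other than the pyruvate dehydrogenase subunits, as percent of the summed RPKM of the step (left bar wild type, right bar knockout). Shares are close between the libraries apart from enolase, where Eno1 goes from 37.3% to 65.4% and Eno1b from 29.6% to 5.38%.

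The libraries differed in Y-linked reads, so the X-linked members are given beside them. The Y-linked genes Kdm5d, Ddx3y and Eif2s3y had 675, 937 and 908 wild-type reads, against 0 knockout reads for each, and Uty had 423 and 7 reads. Pgk1, Pdha1 and Pdk3 lie on the X chromosome in the annotation. Their reads summed to 46632 and 48601, 1.06-fold higher (1.05 to 1.08), with Pdk3 lower. Most of those reads were of Pgk1 (31236 and 33504), which shares 68.3% of its words with genes elsewhere. Sex and genotype cannot be told apart in these libraries.

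Genes of neighbouring pathways were counted from a list of 73, of which 57 were measured. Their median log2 ratio was 0.02, with 30 above 0 and 27 below. At 1.2-fold 3 were higher and 5 lower, against 10.1% and 10.4% of all measured genes, and at 1.5-fold 2 were higher and 0 lower, against 1.52% and 1.44%. No test was made of these shares. The 9 measured genes of pyruvate entry and dehydrogenase assembly had a median of -0.08, with 4 above 0 and 5 below. Emb (embigin, a partner of monocarboxylate transporters) had 6.22 RPKM in the wild-type heart and 10.6 in the knockout, 1.70-fold higher (1.53 to 1.89). Pdpr, a regulator of the phosphatase that reactivates pyruvate dehydrogenase, had 6.46 and 10.6 RPKM, 1.63-fold higher (1.52 to 1.75). The phosphatase subunit Pdp1 had 3.71 and 4.85 RPKM, 1.31-fold higher (1.18 to 1.46), and was named, like Pdpr, after its values were seen. Bsg (basigin), the main partner of the transporters and the most abundant of the list, had 341 and 321 RPKM.

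The mitochondrial pyruvate carrier, also named after its values were seen, was lower in both subunits. Mpc2 had 13.95 RPKM in the wild-type heart and 9.86 in the knockout, 1.42-fold lower (1.31 to 1.53). Mpc1 had 35.6 and 30.2 RPKM, 1.18-fold lower (1.09 to 1.28). Among 15 measured glycogen genes the median was -0.01. The primer glycogenin (Gyg), the most abundant, had 478 and 562 RPKM, 1.18-fold higher (1.16 to 1.19), and Pgm2, a phosphoglucomutase, had 8.07 and 5.69 RPKM, 1.42-fold lower (1.27 to 1.59).

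Of the remaining lists, the pentose phosphate genes lay highest. Over its 8 genes the median was 0.12, with 6 above 0 and 2 below, beside an upper quartile of 0.13 over all measured genes, and none differed by 1.2-fold. Its most abundant gene and its largest difference were Taldo1 (transaldolase) at 62.7 and 55.8 RPKM, and Rpia (ribose-5-phosphate isomerase) at 3.10 and 3.73. Over 14 citrate cycle genes the median was 0.03, with Mdh2 (malate dehydrogenase) at 367 and 378 RPKM and Sdha (succinate dehydrogenase) at 133 and 107, 1.24-fold lower (1.21 to 1.27). Over 5 other isoforms it was -0.05, with Bpgm (the bisphosphoglycerate mutase of red cells) at 14.6 and 15.5 RPKM and Slc2a10 at 2.78 and 1.83. Over 6 genes of gluconeogenesis and fructose-2,6-bisphosphate control it was 0.02, with G6pc3 at 18.9 and 16.3 RPKM and Pcx (pyruvate carboxylase) at 5.04 and 5.97.

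Promoter sequence was not used to choose the list, and a core motif was counted in it. Glycolytic genes are textbook targets of the hypoxia-inducible factors, whose core site is ACGTG, read as CACGT on the other strand. In the 250 bases before the start, from RefSeq promoters of GRCm38.p6, 21 of 51 member promoters held the core on either strand (41.2%), against 16.6% of 32851 promoters in all, which include genes not measured here and were not matched on base composition. Windows of neighbouring starts can overlap, so the same match can count at more than 1 start, as it did for Aldoa. By gene, 17 of the 35 members with a promoter entry held the core at 1 or more starts. The share by gene over all genes was not computed, and a gene with more starts can match more easily. The median log2 ratio of the 17 was -0.04, and that of the 18 members without the core was -0.06, so the feature did not divide the list by ratio. A match is a description and shows no binding. Higher and lower members stood on both sides: Eno1, Gapdh, Gpi1 and Ldhb, all higher in the knockout, had no match at any start, while Pgam1 and Pdhb, both lower, had 1, as did Pkm, also lower, at 1 of its 2 starts. Shown are 3 promoters with the core, of Ldha, Pgk1 and Slc2a1, and 1 without it, of Tpi1. They were picked after their values were seen, to show what such a window looks like with and without a match. The 3 genes shown with the core are higher in the knockout and Tpi1 is lower, a split that the medians above do not show. Those with the core lie at chr7:46845554-46845803, chrX:106186850-106187099 and chr4:119108495-119108744 on the plus strand, and that of Tpi1 at chr6:124814159-124814408 on the minus strand. Capitals mark the core. Where both strands match in the same place, as in CACGTG, the stretch was counted once, which gave 3, 2, 1 and 0 stretches. A second Ldha start, with its window at chr7:46846832-46847081, had 0.
Ldha: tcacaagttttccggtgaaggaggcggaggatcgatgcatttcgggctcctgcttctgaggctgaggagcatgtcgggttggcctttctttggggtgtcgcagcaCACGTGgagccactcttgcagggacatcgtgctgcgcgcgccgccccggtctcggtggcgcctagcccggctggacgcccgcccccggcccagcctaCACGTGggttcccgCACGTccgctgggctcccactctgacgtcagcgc
Pgk1: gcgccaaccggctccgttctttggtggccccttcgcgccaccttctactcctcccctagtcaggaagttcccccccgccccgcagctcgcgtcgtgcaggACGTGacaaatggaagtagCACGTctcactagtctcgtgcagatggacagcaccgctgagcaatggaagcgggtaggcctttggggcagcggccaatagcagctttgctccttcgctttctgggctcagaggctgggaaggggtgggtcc
Slc2a1: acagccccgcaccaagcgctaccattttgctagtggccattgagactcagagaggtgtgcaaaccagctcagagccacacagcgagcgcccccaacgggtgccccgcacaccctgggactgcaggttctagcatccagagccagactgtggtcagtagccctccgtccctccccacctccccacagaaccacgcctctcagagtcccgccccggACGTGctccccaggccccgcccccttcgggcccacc
Tpi1: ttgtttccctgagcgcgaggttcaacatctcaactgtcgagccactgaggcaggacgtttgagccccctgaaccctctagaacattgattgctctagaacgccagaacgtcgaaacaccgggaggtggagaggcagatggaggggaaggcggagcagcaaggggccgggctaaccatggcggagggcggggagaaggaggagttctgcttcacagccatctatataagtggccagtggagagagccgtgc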

How the data were processed

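Per the file headers, the authors deposited for each library a count of uniquely mapped reads per Ensembl gene, the gene length, the covered share of that length, and RPKM scaled to the header's read total. Bowtie 0.12.2 and mm9 are named in the submitters' processing notes. For annotation, filters, read length and strand use, the sources used here state nothing. Counts in each table summed to the header's total, and genes absent from 1 table were given 0 reads. Symbols came from a table of Ensembl identifiers and matched 17196 of 17646 genes.

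With Python 3.11.15 and SciPy 1.17.1, log2 ratios of RPKM + 1 were computed for genes of at least 1 RPKM in 1 library, and fold intervals from counts. No test across genes is possible with 1 library per group. The calculation was checked on simulated counts. Chromosomes and transcripts came from GENCODE M21 (GRCm38), whose build differs from mm9, so no coordinates of the files are given. Promoter entries matched 35 of 38 members.

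Members and lists were chosen with earlier results of these data known. Named in full were the most abundant member of each step, members at least 1.2-fold different, and for each further list its most abundant and most different gene.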

Additional observations from a re-analysis of the deposited data

How the results depend on the processing

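Summing Eno1 and Eno1b to 1 member left 0 members higher and 1 lower at 1.5-fold, and leaving out members with at least 20% shared words, an alternative chosen after seeing the data, also gave 0 and 1. The 1.2-fold rule gave 3 higher and 5 lower, and the 2-fold rule 0 and 1. With a pseudocount of 5 in place of 1, 1 member was lower. The Eno1 plus Eno1b ratio was 0.974 by RPKM in place of 1.02 by reads. The other 25 of 35 alternatives kept their value within its interval or, for counts, within 1.5 times. The median log2 ratio ranged from -0.08 to -0.05 over all its alternatives. Over 3 other scalings, which shifted all ratios by -0.01 to 0.02 (log2), the direction of Slc16a1 and Dld turned at least once. Shifts of that size could not turn a member at least 1.2-fold different. Depth limits chiefly Aldoc, Pfkfb2 and Eno2. No paired analysis was possible because each group has 1 library.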
